A study of Homo sapiens with 6 samples.

Results

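Transcripts of the DNA replication machinery were quantified by RNA sequencing in SW1353, an established cell line from a human chondrosarcoma, a malignant tumour that forms cartilage. The 53 genes described here were taken from a list of gene names drawn up by function, with no threshold on measured values. The list was chosen with earlier results of these data known, so counts over it are descriptions and the set was not tested. They encode the proteins that mark and license replication origins, the replicative helicase and its activators, the polymerases and other fork machinery, the fork checkpoint, and factors that rebuild chromatin and DNA methylation behind the fork. All 53 were matched by symbol among the 60691 genes listed, and all 53 were among the 16591 genes with enough reads to be tested. Of the 6 libraries, 3 came from cells transduced with a lentiviral short hairpin RNA labelled shSIRT1 and 3 from cells with shfirefly, a control hairpin directed at an insect luciferase. SIRT1 is an NAD+-dependent deacetylase, and the design text relates it to the transcriptional output of HIF-2α, a factor that accumulates at low oxygen and is encoded by EPAS1. Both groups were held at 3% oxygen and harvested 48 h after they were plated, and the 3 libraries of a group are biological replicates by the design text. Each group carried 1 hairpin, so effects of the hairpin sequence and of the loss of its target cannot be told apart. The sample titles, the treatment label and the design text name SIRT1 as the target, while the treatment protocol names EPAS1.

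SIRT1 had 12.9, 13.2 and 14.7 CPM (read counts scaled to a common library size) in the shSIRT1 libraries, against 26.0, 24.8 and 24.0 CPM in the shfirefly libraries. EPAS1 had 245, 226 and 228 CPM in the shSIRT1 libraries, against 477, 483 and 409 CPM in the shfirefly libraries. Both fell, by 0.88 and 0.97 on the log2 scale (adjusted p = 2.3e-09 and 5.8e-07). CPM values use effective library sizes, and adjusted p-values are from edgeR's quasi-likelihood test with Benjamini-Hochberg adjustment over all 16591 genes. A gene was called at an adjusted p under 0.05. Total counts were 24993064 to 29564361 in the shSIRT1 libraries and 28556696 to 32044191 in the shfirefly libraries. SOX9, the transcription factor of cartilage cells, averaged 53.1 CPM in shSIRT1 cells and 43.7 CPM in shfirefly cells, and the sum of the 7 cartilage markers read was 63.9 CPM in shSIRT1 cells and 58.0 CPM in shfirefly cells. Of the cartilage matrix genes, MATN3 averaged 4.81 CPM in shSIRT1 cells and 3.78 CPM in shfirefly cells, and HAPLN1 averaged 4.28 CPM in shSIRT1 cells and 8.08 CPM in shfirefly cells. The defining matrix genes had lower levels than MATN3 and HAPLN1 in both groups. ACAN averaged 0.68 CPM in shSIRT1 cells and 1.51 CPM in shfirefly cells, and COL11A2 averaged 0.70 and 0.93 CPM. COL2A1 averaged 0.33 CPM in shSIRT1 cells and 0.034 CPM in shfirefly cells, and COL9A1 had 0 counts in all 6 libraries. Marker sums of epithelial, blood and endothelial cells were between 0.32 and 1.58 CPM in both groups.

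DNA replication begins in G1, when the origin recognition complex (ORC) and CDC6, with CDT1, load the ring-shaped MCM2-7 helicase onto DNA in an inactive form. In S phase the kinase CDC7 with its subunit DBF4, together with CDC45, the GINS complex and MCM10, turns the loaded rings into moving helicases, and geminin (GMNN) blocks further loading by binding CDT1. DNA polymerase alpha with primase then starts each strand, polymerases epsilon and delta extend them on the sliding clamp PCNA, and claspin, timeless and tipin hold the fork together and pass stalling signals to the kinase CHEK1. Many of these genes are known targets of E2F transcription factors, which act around the entry into S phase.

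Promoter sequence was examined because most of the 53 genes moved in the same direction. A RefSeq table of promoters (GRCh38.p14, 250 bases before to 50 bases after the start, the first start listed for each gene) held 46 of the 53, and 11 of those have more than 1 listed start. The 8-letter E2F-type sequences TTTGGCGC, TTTCCCGC, TTTGCCGC and TTTCGCGC were searched on both strands, where a match on one strand can overlap a match on the other. They occurred in 20 of 46 replication promoters (43.5%), against 908 of 27305 promoters in the table (3.33%) and 591 of 11139 promoters of tested genes (5.31%). The first 4 windows printed here, the 160 bases that end at the base before the start, carry such letters and come from genes of the helicase, polymerase alpha, the clamp and the leading-strand polymerase. The last pair come from CLSPN and CDC7, genes with large increases whose windows hold no complete match. Promoters whose windows lay further into annotated exons were not considered for printing. Of the rest, most held no complete match, and the first 4 printed are all those that did. Capitals mark the matched letters, and each sequence reads 5′ to 3′ on the strand of its gene. In the printed windows, 0 to 23 bases lie in annotated exons.
MCM6 (chr2:135876444-135876603, reverse strand): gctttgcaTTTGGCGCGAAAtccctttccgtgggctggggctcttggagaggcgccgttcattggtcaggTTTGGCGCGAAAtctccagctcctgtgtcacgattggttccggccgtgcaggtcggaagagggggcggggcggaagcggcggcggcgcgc
POLA1 (chrX:24693758-24693917, forward strand): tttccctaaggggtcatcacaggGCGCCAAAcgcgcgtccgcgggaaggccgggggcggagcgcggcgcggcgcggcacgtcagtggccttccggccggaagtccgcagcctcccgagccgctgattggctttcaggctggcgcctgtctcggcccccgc
PCNA (chr20:5126623-5126782, reverse strand): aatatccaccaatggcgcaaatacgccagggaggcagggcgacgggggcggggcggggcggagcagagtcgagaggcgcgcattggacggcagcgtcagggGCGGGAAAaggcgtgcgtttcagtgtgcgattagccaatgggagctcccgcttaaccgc
POLE (chr12:132687343-132687502, reverse strand): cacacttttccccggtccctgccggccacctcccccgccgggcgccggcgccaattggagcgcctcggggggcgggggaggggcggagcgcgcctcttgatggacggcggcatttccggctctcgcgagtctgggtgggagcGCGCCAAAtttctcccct
CLSPN (chr1:35769979-35770138, reverse strand): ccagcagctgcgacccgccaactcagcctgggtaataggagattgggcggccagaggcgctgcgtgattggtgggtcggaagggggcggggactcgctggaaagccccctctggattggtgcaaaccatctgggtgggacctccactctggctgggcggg
CDC7 (chr1:91500691-91500850, forward strand): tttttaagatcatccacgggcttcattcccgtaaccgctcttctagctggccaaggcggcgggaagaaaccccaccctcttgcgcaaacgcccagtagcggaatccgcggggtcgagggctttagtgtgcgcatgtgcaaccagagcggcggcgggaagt

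In MCM6, 4 matches began 152, 148, 90 and 86 bases before the start, and the runs in capitals read TTTGGCGCGAAA because a match on each strand overlaps. In CLSPN a match on the opposite strand began 5 bases before the start and ran past the end of the printed window. Replication genes with the letters had a median log2 fold change of 0.71 and those without had 0.49. Among all tested genes in the table, with the replication genes included, 41.8% of those with the letters and 30.6% of those without were called higher. The inner 6 letters alone, TTGGCG or TTCCCG or TTGCCG or TTCGCG, were in 38 of 46 replication promoters (82.6%), in 31.2% of all promoters and in 45.2% of those of tested genes. CCAAT was in 26 of 46 (56.5%), in 35.7% of all and in 37% of those of tested genes. The hypoxia-response core ACGTG was in 13 of 46 (28.3%), in 21.6% of all and in 26.2% of those of tested genes, a share near that of the replication genes. TTTGAA, the cell cycle homology region of mitotic genes, was in 1 of 46 (2.17%), in 15.4% of all and in 9.87% of those of tested genes. These matches describe letters in a window, not bound sites.

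Of the 53 genes, 51 rose in shSIRT1 cells, 0 fell and 2 (ORC3 and POLD2) were not called. Among all genes tested, 26.8% were called higher and 26% lower, so a call in either direction was common in this comparison (52.8%). The median log2 fold change of the replication genes was 0.60 (1.52-fold, quartiles 0.37 and 0.80), against 0.0047 over all genes tested. In 51 of the 53 every shSIRT1 library lay above every shfirefly library, a pattern seen in 30.4% of all genes tested, and in 0 of the 53 every shSIRT1 library lay below (29.4% of all genes tested). At least a 1.5-fold increase was called in 28 of the 53, against 7.32% of all genes tested. Summed over the 53 genes, the level was 3685, 3918 and 3746 CPM in the shSIRT1 libraries, against 2432, 2480 and 2685 CPM in the shfirefly libraries. Their share of all counts was 0.384%, 0.406% and 0.392% in the shSIRT1 libraries, against 0.233%, 0.235% and 0.26% in the shfirefly libraries. In RNA from whole cultures, a larger share of cells in S phase and more of these transcripts per cell cannot be told apart.

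**Figure D1:**
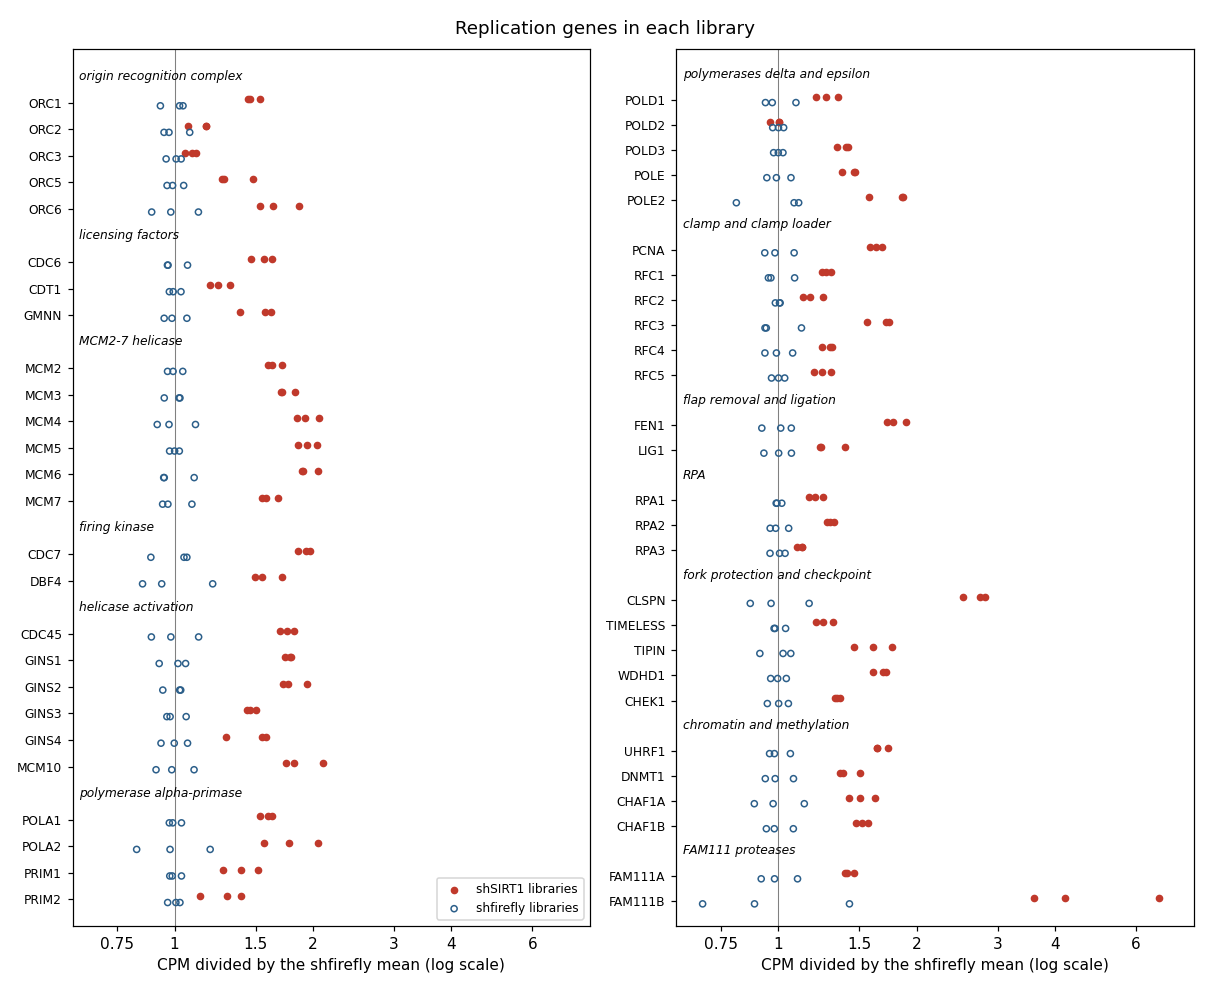
CPM of the 53 replication genes in each library, divided by the mean of the 3 shfirefly libraries of that gene (log axis). Filled points are shSIRT1 libraries and open points shfirefly libraries, with genes grouped by role. The shSIRT1 points lie above all shfirefly points in 51 of the 53 genes, and the points of ORC2 and POLD2 overlap.

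The size of the increase varied by role. Origin licensing (5 ORC subunits, CDC6, CDT1 and GMNN) had a median log2 fold change of 0.50, with 7 of 8 genes called higher and 3 of 8 at 1.5-fold or more. The helicase and its activation (MCM2 to MCM7, CDC7, DBF4, CDC45, 4 GINS subunits and MCM10) had a median of 0.82, with 14 of 14 called higher and 12 of 14 at 1.5-fold or more. Polymerases and fork machinery had a median of 0.37, with 19 of 20 called higher and 6 of 20 at 1.5-fold or more. The 5 genes of the checkpoint and fork protection had a median of 0.69, all 5 called higher and 3 at 1.5-fold or more. The differences between these medians were not tested.

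**Figure D2:**
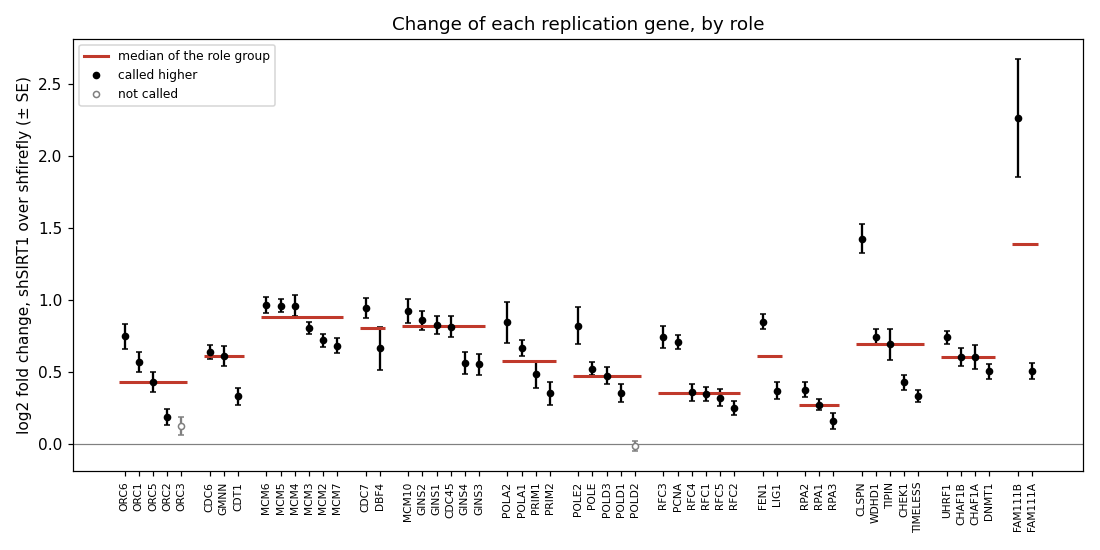
Log2 fold change of each replication gene, shSIRT1 over shfirefly, with its standard error, ordered within role groups; the horizontal lines are group medians. MCM2-7 and the helicase activators lie between 0.55 and 0.96, RPA and most clamp loader subunits between 0.16 and 0.38, and CLSPN (1.42) and FAM111B (2.27) above all others.

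Among the ORC subunits, which bind origins and recruit the loading factors, 4 of 5 rose, with a median log2 fold change of 0.43. ORC6 had 36.1, 43.9 and 38.6 CPM in the shSIRT1 libraries, against 23.1, 21.0 and 26.6 CPM in the shfirefly libraries. This was the largest change of the complex, 0.74 ± 0.09 (log2 ± SE, adjusted p = 1.6e-05), and the groups were well apart. ORC1 and ORC5 rose by 0.57 and 0.43. ORC2 had 50.7, 55.4 and 55.5 CPM in the shSIRT1 libraries, against 44.9, 46.0 and 51.0 CPM in the shfirefly libraries, a change of 0.19 ± 0.06 (adjusted p = 0.0081). Its groups overlapped, since shfirefly replicate 3 lay above shSIRT1 replicate 1. The call was lost without shfirefly replicate 1 (adjusted p = 0.071) and under an offset for GC content and length, where the change was 0.04. ORC3 had 27.7, 29.2 and 28.7 CPM in the shSIRT1 libraries, against 27.1, 26.5 and 25.2 CPM in the shfirefly libraries. Although the ORC3 ranges did not overlap, its change of 0.12 ± 0.06 was not called (adjusted p = 0.10), and 30.4% of all genes had ranges apart in that direction. It was called higher with library totals alone (0.24, adjusted p = 0.002) and was -0.03, not called, under the GC and length offset, so its direction depends on the processing.

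The 3 factors that control helicase loading rose to different degrees. CDC6, the ATPase that joins ORC to load MCM2-7, had 89.7, 99.9 and 96.0 CPM in the shSIRT1 libraries, against 59.1, 59.2 and 65.3 CPM in the shfirefly libraries (0.64 ± 0.05, adjusted p = 1.1e-09). CDT1, which carries the helicase to the origin, had 40.5, 38.3 and 36.8 CPM in the shSIRT1 libraries, against 30.5, 31.7 and 29.9 CPM in the shfirefly libraries (0.33 ± 0.06, adjusted p = 5.4e-05). Its inhibitor GMNN had 34.4, 40.2 and 39.0 CPM in the shSIRT1 libraries, against 23.6, 24.5 and 26.4 CPM in the shfirefly libraries (0.61 ± 0.07, adjusted p = 1.2e-07). All 3 genes had shSIRT1 libraries above every shfirefly library. The ratio of CDT1 to GMNN CPM was 1.18, 0.952 and 0.944 in the shSIRT1 libraries, against 1.30, 1.30 and 1.13 in the shfirefly libraries. These ratios overlapped, with a mean log2 difference of -0.28 (exact two-sided permutation test, p = 0.2, adjusted p = 0.23 over the 7 ratios compared).

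All 6 subunits of the MCM2-7 ring rose, by 1.60-fold to 1.95-fold, with a median log2 fold change of 0.88. MCM5 had 154, 169 and 161 CPM in the shSIRT1 libraries, against 81.0, 83.1 and 85.1 CPM in the shfirefly libraries. MCM6 had 106, 115 and 107 CPM in the shSIRT1 libraries, against 53.1, 53.3 and 61.9 CPM in the shfirefly libraries. MCM4 had 218, 233 and 209 CPM in the shSIRT1 libraries, against 104, 110 and 126 CPM in the shfirefly libraries. Those 3 subunits changed by nearly the same amount, 0.96 ± 0.04 for MCM5, 0.96 ± 0.06 for MCM6 and 0.96 ± 0.07 for MCM4 (adjusted p = 1.1e-13, 2.4e-10 and 5.6e-06). MCM3 had 141, 151 and 142 CPM in the shSIRT1 libraries, against 84.8, 78.8 and 85.2 CPM in the shfirefly libraries. MCM2 had 106, 113 and 108 CPM in the shSIRT1 libraries, against 64.0, 65.8 and 69.0 CPM in the shfirefly libraries. MCM7 had 258, 278 and 263 CPM in the shSIRT1 libraries, against 156, 161 and 181 CPM in the shfirefly libraries. These rose by 0.80 ± 0.04, 0.72 ± 0.04 and 0.68 ± 0.05 (adjusted p = 2.9e-12, 2.1e-11 and 1.3e-08), and no shSIRT1 library of any subunit reached down to a shfirefly library.

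Per length of annotated exons, MCM7 had the highest level of the 6 subunits, 60.7 CPM per kb in shSIRT1 cells and 37.8 CPM per kb in shfirefly cells. Of the summed MCM2-7 level per length, MCM7 made up 29.9% ± 0.19 in shSIRT1 cells and 32.8% ± 0.64 in shfirefly cells (SD, n = 3). The shares of MCM4, MCM5 and MCM6 were 15.6%, 10.9% and 13.1% in shSIRT1 cells and 14.1%, 9.84% and 11.8% in shfirefly cells. Library values of these 4 shares did not overlap between the groups. The ratio of the highest to the lowest subunit was 2.76 ± 0.03 in shSIRT1 cells and 3.34 ± 0.19 in shfirefly cells. With the length of the longest transcript in place of the exon union, MCM7 was again first and its share was 31.0% in shSIRT1 cells and 34.0% in shfirefly cells, while the order of the other subunits changed. The gene of MCM7 hosts MIR106B, MIR93 and MIR25 on the same strand and overlaps AP4M1 on the opposite strand. If counting ignored strand, reads of AP4M1 may be included.

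**Figure D3:**
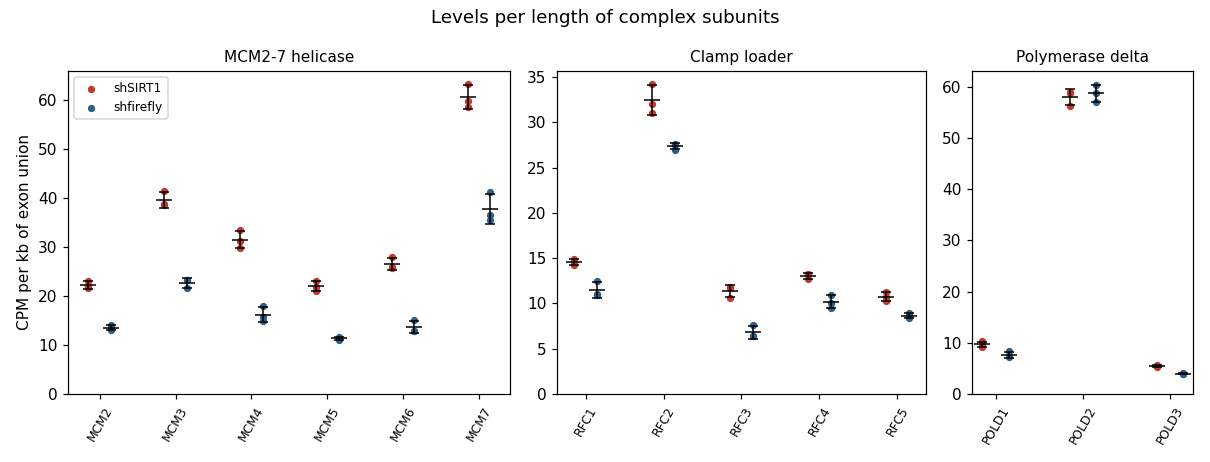
Levels per kb of exon union of the MCM2-7 helicase, the clamp loader and polymerase delta; points are libraries, and bars give the mean and SD (n = 3 per group). MCM7, RFC2 and POLD2 are the highest subunits of their complexes, and POLD2 is the subunit whose shSIRT1 and shfirefly values coincide.

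Both subunits of the firing kinase rose. The catalytic subunit CDC7 had 36.5, 38.0 and 38.8 CPM in the shSIRT1 libraries, against 17.5, 20.6 and 20.9 CPM in the shfirefly libraries (0.94 ± 0.07, adjusted p = 2.4e-10). DBF4, which activates CDC7, had 62.8, 65.1 and 71.8 CPM in the shSIRT1 libraries, against 35.8, 39.4 and 50.8 CPM in the shfirefly libraries (0.66 ± 0.15, adjusted p = 0.019). The ranges were apart for both, but DBF4 varied more, with shfirefly replicate 3 above its group. DBF4 lost its call without shfirefly replicate 2 (adjusted p = 0.069) or shSIRT1 replicate 1 (adjusted p = 0.054). CDC7 over DBF4 was 0.582, 0.584 and 0.541 in the shSIRT1 libraries, against 0.488, 0.524 and 0.411 in the shfirefly libraries. That ratio was higher in each shSIRT1 library, at the smallest p that 3 against 3 allows (exact two-sided permutation test, p = 0.1, adjusted p = 0.14).

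The 6 genes that complete or activate the helicase all rose, with a median of 0.82. MCM10, needed for the loaded rings to separate and move, had 27.3, 31.6 and 26.3 CPM in the shSIRT1 libraries, against 13.7, 14.8 and 16.6 CPM in the shfirefly libraries (0.92 ± 0.08, adjusted p = 1.5e-08). GINS3 had 22.1, 21.8 and 22.8 CPM in the shSIRT1 libraries, against 14.6, 14.8 and 16.1 CPM in the shfirefly libraries (0.55 ± 0.07, adjusted p = 1.2e-06). These are the largest and the smallest change of the group, and both had groups apart. CDC45, GINS1 and GINS2 rose by 0.81, 0.82 and 0.86, and GINS4 by 0.56. Of the summed GINS level per length, GINS2 made up 38.1% ± 1.5 in shSIRT1 cells and 35.2% ± 0.25 in shfirefly cells, and GINS3 13.96% ± 0.75 in shSIRT1 cells and 15.9% ± 0.59 in shfirefly cells (SD, n = 3).

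Polymerase alpha-primase, the enzyme that makes the first stretch of each new strand, rose in all 4 subunits, with a median of 0.57. POLA2, its regulatory B subunit, was also the least abundant per length and had 6.03, 7.93 and 6.84 CPM in the shSIRT1 libraries, against 3.19, 3.77 and 4.61 CPM in the shfirefly libraries (0.84 ± 0.14, adjusted p = 4.2e-05). PRIM2, the large primase subunit, had 18.2, 22.3 and 20.8 CPM in the shSIRT1 libraries, against 15.4, 16.1 and 16.4 CPM in the shfirefly libraries (0.35 ± 0.08, adjusted p = 0.00085). Groups were apart for both. The catalytic subunits POLA1 and PRIM1 rose by 0.67 and 0.48.

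Of the 5 genes of polymerases delta and epsilon, 4 rose. POLE2, a subunit of the leading-strand polymerase, had 6.85, 8.06 and 8.10 CPM in the shSIRT1 libraries, against 3.52, 4.70 and 4.81 CPM in the shfirefly libraries (0.82 ± 0.13, adjusted p = 1.8e-05). POLD1, the catalytic subunit of delta, had 50.6, 47.5 and 45.4 CPM in the shSIRT1 libraries, against 35.1, 36.4 and 40.9 CPM in the shfirefly libraries (0.35 ± 0.06, adjusted p = 5.3e-05). Both had shSIRT1 libraries above every shfirefly library. POLD2, an accessory subunit of delta, had 217.5, 218 and 208 CPM in the shSIRT1 libraries, against 211, 223 and 217 CPM in the shfirefly libraries. Its groups overlapped and its change was -0.02 ± 0.04 (adjusted p = 0.74, approximate 95% interval -0.09 to 0.06). It was called higher with library totals alone (0.10) and with a GC and length offset (0.095), so its direction depends on the scaling. POLD3 and the epsilon catalytic subunit POLE rose by 0.47 and 0.52. POLD2 was the most abundant of the 3 delta subunits per length, at 79.3% ± 0.24 of their sum in shSIRT1 cells and 83.6% ± 0.84 in shfirefly cells (SD, n = 3). The other subunits, POLD1 and POLD3, made up 13.2% and 7.44% in shSIRT1 cells and 10.8% and 5.58% in shfirefly cells, and library values of all 3 shares were apart.

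The sliding clamp PCNA rose by 0.71, with 157 to 166.5 CPM in the shSIRT1 libraries and 92.5 to 107 CPM in the shfirefly libraries. The clamp loader, replication factor C, opens PCNA and places it on DNA, and its 5 subunits all rose but unevenly. RFC3 had 30.5, 33.6 and 34.0 CPM in the shSIRT1 libraries, against 18.3, 18.4 and 22.0 CPM in the shfirefly libraries (0.74 ± 0.07, adjusted p = 4e-08). RFC2 had 70.8, 75.8 and 68.5 CPM in the shSIRT1 libraries, against 60.9, 59.6 and 61.1 CPM in the shfirefly libraries (0.25 ± 0.05, adjusted p = 0.00016). Neither gene had overlapping groups, and RFC1, RFC4 and RFC5 lay between 0.32 and 0.36. The share of RFC3 in the summed loader level per length was 13.9% ± 0.77 in shSIRT1 cells and 10.5% ± 0.75 in shfirefly cells, and the share of RFC2 was 39.5% ± 1.1 in shSIRT1 cells and 42.5% ± 1.2 in shfirefly cells (SD, n = 3).

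FEN1, which cuts the flaps left by lagging-strand synthesis, had 95.1, 105 and 98.4 CPM in the shSIRT1 libraries, against 50.9, 56.0 and 59.0 CPM in the shfirefly libraries (0.85 ± 0.05, adjusted p = 9.4e-11). LIG1, which seals the nicks, had 56.9, 64.5 and 57.2 CPM in the shSIRT1 libraries, against 46.3, 43.0 and 49.3 CPM in the shfirefly libraries (0.37 ± 0.06, adjusted p = 3e-05). Groups were apart for both genes, and the annotated gene of FEN1 overlaps FADS2 on the same strand and TMEM258 on the opposite strand. RPA, the complex that coats single-stranded DNA, had the smallest median of the role groups, 0.27. RPA2 had 48.7, 47.8 and 49.7 CPM in the shSIRT1 libraries, against 36.0, 37.0 and 39.5 CPM in the shfirefly libraries (0.38 ± 0.05, adjusted p = 3.4e-06). RPA3 had 35.9, 36.0 and 35.1 CPM in the shSIRT1 libraries, against 33.0, 30.6 and 32.1 CPM in the shfirefly libraries (0.16 ± 0.06, adjusted p = 0.021). The RPA3 groups were apart by a narrow margin, and its call was lost with upper-quartile scaling, with DESeq2 and without any 1 of shfirefly replicate 2 and shSIRT1 replicates 1 and 2 (adjusted p of 0.058 to 0.11). RPA1 rose by 0.27.

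The fork protection and checkpoint genes spanned log2 fold changes of 0.33 (TIMELESS) to 1.42 (CLSPN). CLSPN encodes claspin, the adaptor through which the kinase ATR activates CHEK1. It had 67.9, 75.7 and 73.9 CPM in the shSIRT1 libraries, against 26.0, 23.4 and 31.5 CPM in the shfirefly libraries, a change of 1.42 ± 0.10 (2.68-fold, adjusted p = 7.3e-06). CHEK1 had 51.5, 52.3 and 51.0 CPM in the shSIRT1 libraries, against 36.3, 38.4 and 40.4 CPM in the shfirefly libraries (0.43 ± 0.05, adjusted p = 5.6e-07). CLSPN was below CHEK1 in CPM in every shfirefly library and above it in every shSIRT1 library. The ratio of CLSPN to CHEK1 was 1.32, 1.45 and 1.45 in the shSIRT1 libraries, against 0.716, 0.609 and 0.779 in the shfirefly libraries, a mean log2 difference of 1.01 (exact two-sided permutation test, p = 0.1, adjusted p = 0.14). In the annotation CLSPN lies on chromosome 1, at 35720218 to 35769967 on the reverse strand of GRCh38.

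TIMELESS and TIPIN encode partners that travel with the fork. TIMELESS had 104, 109 and 101 CPM in the shSIRT1 libraries, against 81.5, 81.9 and 86.3 CPM in the shfirefly libraries (0.33 ± 0.04, adjusted p = 1.6e-06). TIPIN had 10.3, 11.3 and 9.36 CPM in the shSIRT1 libraries, against 5.83, 6.55 and 6.81 CPM in the shfirefly libraries (0.69 ± 0.11, adjusted p = 1.2e-05). Groups were apart for both, and the ratio of TIMELESS to TIPIN was lower in each shSIRT1 library than in any shfirefly library, by 0.36 on the log2 scale (exact two-sided permutation test, p = 0.1, adjusted p = 0.14). WDHD1, which links the helicase to polymerase alpha, rose by 0.74.

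Factors that rebuild chromatin and DNA methylation behind the fork also rose. UHRF1, which recognises hemimethylated DNA behind the fork, had 126, 133 and 126 CPM in the shSIRT1 libraries, against 73.5, 75.4 and 81.6 CPM in the shfirefly libraries (0.74 ± 0.05, adjusted p = 1.6e-11). DNMT1, the methyltransferase that it recruits, had 215, 237 and 218 CPM in the shSIRT1 libraries, against 155, 148 and 170 CPM in the shfirefly libraries (0.50 ± 0.05, adjusted p = 5.2e-07). The ratio of UHRF1 to DNMT1 was higher by 0.24 on the log2 scale, with no overlap (exact two-sided permutation test, p = 0.1, adjusted p = 0.14). CHAF1A had 49.8, 56.9 and 52.8 CPM in the shSIRT1 libraries, against 31.1, 34.1 and 39.9 CPM in the shfirefly libraries. CHAF1B had 35.0, 36.1 and 37.2 CPM in the shSIRT1 libraries, against 23.3, 22.4 and 25.6 CPM in the shfirefly libraries. These subunits of the histone chaperone CAF-1 both rose by 0.60 (SE 0.09 and 0.06, adjusted p = 0.00013 and 5.8e-08), and the difference in their log2 ratio was 0.0024 with overlapping libraries (exact two-sided permutation test, p = 1).

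FAM111A and FAM111B encode related proteases, of which FAM111A acts at obstacles in front of the fork. Both lie on the forward strand of chromosome 11 in GRCh38, FAM111B at 59107185 to 59127410 and FAM111A at 59142748 to 59155039. FAM111B had 22.7, 19.4 and 36.3 CPM in the shSIRT1 libraries, against 3.68, 4.77 and 7.68 CPM in the shfirefly libraries. This was the largest change of the 53 genes, 2.27 ± 0.41 (4.81-fold, adjusted p = 0.011), and also the least precise. Both libraries numbered 3 were the highest of their groups, the groups were far apart, and the change was 1.962 to 2.62 when 1 library was left out, with rounded adjusted p up to 0.05 and the call kept each time. FAM111A had 76.2, 75.3 and 78.9 CPM in the shSIRT1 libraries, against 52.99, 49.6 and 59.5 CPM in the shfirefly libraries (0.51 ± 0.06, adjusted p = 2.7e-07). The ratio of FAM111B to FAM111A was 0.297, 0.257 and 0.46 in the shSIRT1 libraries, against 0.0695, 0.0963 and 0.129 in the shfirefly libraries, with no overlap (exact two-sided permutation test, p = 0.1, adjusted p = 0.14).

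Libraries of a group were not level in these genes. Replicate 2 of shSIRT1 was the highest of its group in 37 of the 53 genes, against 36% of all genes, with a median deviation of 0.05 on the log2 scale from the group mean. Replicate 3 of shfirefly was the highest of its group in 44 of the 53, against 36.6% of all genes, with a median deviation of 0.09. Without shfirefly replicate 3 the median change was 0.65 and 51 genes were called higher, and without both libraries numbered 3 it was 0.64 with 51 called. The median coefficient of variation of the 53 genes between replicates was 4.59% in shSIRT1 cells and 6.66% in shfirefly cells.

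**Figure D4:**
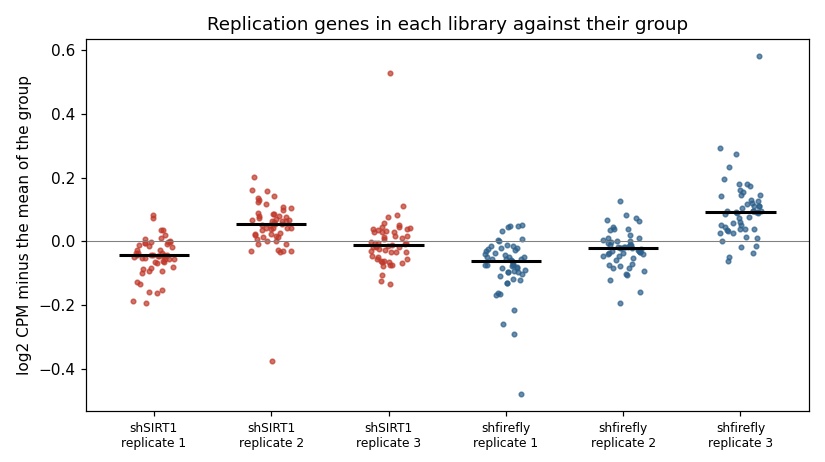
Log2 CPM of each of the 53 replication genes in each library minus the mean of its group; points are genes and bars are medians. The points of shfirefly replicate 3 lie mostly above 0 (median 0.09) and those of shSIRT1 replicate 2 likewise (median 0.05).

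A further 50 genes of replication and its control, which are not among the 53, were read in the same fit, and 49 had enough reads. They too were chosen with earlier results of these data known. Of these, 39 rose, 1 fell and 9 were not called, with a median log2 fold change of 0.38. Calls over all genes tested were 26.8% higher and 26% lower. CDC25A, the phosphatase that activates cyclin-dependent kinases at S phase entry, had 26.1, 26.1 and 25.7 CPM in the shSIRT1 libraries, against 10.6, 12.4 and 10.8 CPM in the shfirefly libraries (1.21 ± 0.08, adjusted p = 2.3e-11). WEE1, the kinase that opposes it, had 61.8, 61.5 and 60.1 CPM in the shSIRT1 libraries, against 69.1, 62.1 and 68.6 CPM in the shfirefly libraries (-0.12 ± 0.05, adjusted p = 0.04). The CDC25A groups were far apart, whereas those of WEE1 nearly touched and its call was lost in 10 alternative fits. ETAA1, an activator of ATR, and ATAD5, which unloads PCNA, rose by 1.05 and 0.99 (adjusted p = 0.048 and 0.022), and both calls were lost when any 1 of several libraries was left out. ORC4, the ORC subunit outside the 53, rose by 0.26 (adjusted p = 0.0014), and its change was 0.03 and not called under the GC and length offset. The 9 that were not called included the checkpoint clamp genes HUS1 and RAD9A, and RAD17, a gene of the loader of that clamp. RAD1, another gene of the clamp, rose by 0.26 (adjusted p = 0.00069). The other genes not called were the fork remodeller SMARCAL1, the polymerase subunits POLD4 and POLE4, and RNASEH2C, CHTF8 and DDB1. CHTF8 had few reads, with means of 0.39 CPM in shSIRT1 cells and 0.51 CPM in shfirefly cells.

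**Figure D5:**
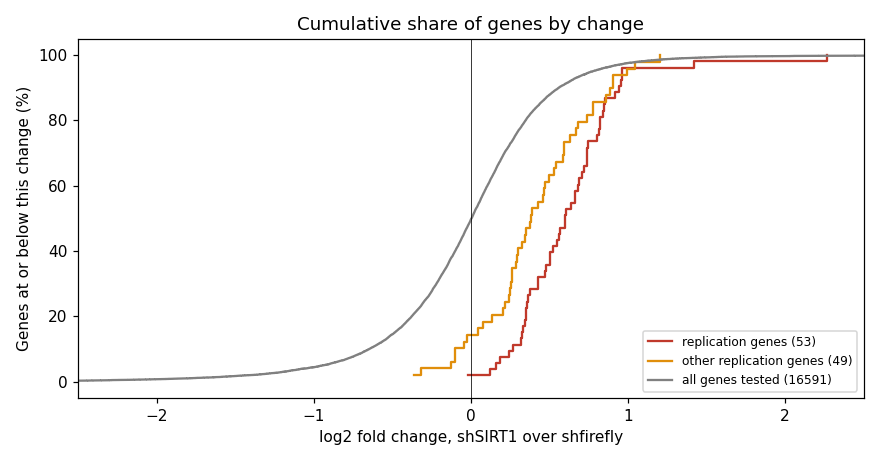
Cumulative share of genes at or below each log2 fold change, shSIRT1 over shfirefly, for the 53 replication genes, the 49 other replication genes tested and all 16591 genes tested. The curves of both replication sets lie to the right of that of all genes, with medians of 0.60 and 0.38 against 0.0047.

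In the authors' deposited table, 50 of the 53 genes were higher in shSIRT1 cells at an adjusted p under 0.05, 0 were lower and 3 did not pass, against 20.6% of the genes with an adjusted p that were higher there. Besides ORC3 and POLD2, RPA3 did not pass in the authors' deposited table (adjusted p = 0.063).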

How the data were processed

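The values came from a single table of the whole series. Its read counts per gene were deposited by the authors as raw whole numbers, per the file headers. The deposited normalized counts, rounded by the authors, and their group means were treated as a score and entered no test. Per the file headers, the authors' own comparison is deposited as a ratio (fold change), its log2 value, and a p-value before and after adjustment. Trimmomatic, STAR and DESeq2 were used with build GRCh38, per the submitters' processing notes; their versions, the annotation release, the read counter and whether strand was used are details not given in the sources used here. Libraries were made with a stranded mRNA kit, per the labels' protocols.

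Columns were matched to samples by name, with the control columns taken as shfirefly, the control group of the labels. Genes passing filterByExpr were scaled by TMM and tested with edgeR 4.0.16 (robust glmQLFit, glmQLFTest, R 4.3.3) on group alone, with Benjamini-Hochberg adjustment over 16591 genes and a threshold of 0.05. The SE was approximated from F as the size of the log2 change over the root of F. The procedure was run on simulated counts with 200 changed genes, balanced in direction and with a common dispersion. In the data 52.8% of tested genes were called, and genes differed in spread. The simulation therefore does not show how the procedure performs under such conditions. Replicates differed by more than sampling noise, with a chi-square per gene of 2.82 to 6.1 within groups, so each library counted once, and p-values measure the spread between these libraries. Lengths, GC content and overlaps came from GENCODE 29 (GRCh38), whose gene version matched for 6 of the 53 genes, so boundaries may differ from the authors'. Another gene overlaps 17 of the 53 on the same strand and 24 on the opposite strand, so some reads may be shared or, if strand was ignored, mixed. Promoters and motif matches came from RefSeq (GRCh38.p14). Ratios of 2 genes were compared by exact permutation tests, whose smallest p is 0.1.

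The 53 genes, their roles, the 50 other replication genes and the motifs were chosen with earlier results of these data known. Values per library are given for the called genes of largest and smallest change in each role, genes not called, genes whose call is lost when libraries are left out, and partner genes; other genes by their change. Alternatives were RLE, upper-quartile and total-count scaling, no filter, a filter of 1 CPM in 3 libraries, DESeq2 1.42.0, no robust estimation, the replicate number as a block, a GC and length offset (natural splines, 5 degrees of freedom; 99.1% of tested genes had both values), and leaving out libraries.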

Additional observations from a re-analysis of the deposited data

How the results depend on the processing

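In every alternative 49 to 53 of the 53 genes were called higher and 0 lower, with 53 under library totals alone and 49 without shfirefly replicate 2 or shSIRT1 replicate 1. Their median log2 fold change of 0.60 became 0.55 with upper-quartile scaling and 0.72 with library totals alone, settings that move the median of all genes to -0.04 and 0.13. It was 0.55 to 0.65 when 1 library was left out. The median of the other replication genes became 0.33 and 0.50 under those scalings. Their number called lower, 1 in the reported fit, was 2 with upper-quartile scaling, the replicate block and the GC and length offset with or without the block, and 0 with library totals alone, no filter, no robust estimation, DESeq2 or without both libraries numbered 3; it was 0 to 2 when 1 library was left out. For the firing kinase 1 to 2 of 2 genes were called when 1 library was left out. ORC3 turned to -0.03 under the GC and length offset, with the block (-0.0295) and without it (-0.0285). POLD2 turned to 0.1048 with library totals alone, 0.0950 and 0.0953 with the GC and length offset without and with the block, and 0.0054 without both libraries numbered 3, and ranged from -0.0453 to 0.0062 when 1 library was left out (0.0031 without shfirefly replicate 2, 0.0062 without shSIRT1 replicate 3). The cause was not tested.

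Deviations from the group means correlated at -0.0102, -0.0666 and 0.132 between same-numbered libraries. Between libraries of different numbers the correlations ranged from -0.154 to 0.171. With 3 libraries per group, these values cannot decide whether same-numbered samples were paired, and the reported fit used group alone. With the replicate block 51 of the 53 genes were called higher, with a median of 0.61, and no call among them changed. The 53 genes had 98 to 8531 counts in a library.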

Other observations

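Across the 53 genes the change was weakly related to the level in shfirefly cells. Spearman's rho of log2 fold change was -0.24 with mean shfirefly CPM and -0.27 with shfirefly CPM per kb of the longest transcript. With transcript GC content it was -0.09. The shfirefly level is also the denominator of the fold change, which by itself favours a negative rho with level. The genes share the same 6 libraries and are not independent, so these are descriptions without a test. RNASEH2A, the catalytic subunit of the RNase H2 that removes RNA from DNA, was not tested because of its low level, 0.228 to 0.326 CPM in the shSIRT1 libraries and 0.0323 to 0.037 CPM in the shfirefly libraries. Its annotated gene overlaps THSD8 on the same strand and HOOK2 on the other, and the part of that overlap in its low counts was not tested. Few reads were counted on processed copies named after a member: DBF4P1, the copy with the largest share, had 0.755% as many counts as DBF4. How reads that map equally to a gene and its copy were handled is not known.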
